A study of Canis rufus and Canis latrans with 56 samples.

Results

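The proteasome genes are the 40 genes of the array whose human symbol begins with PSMA, PSMB, PSMC, PSMD, PSME or PSMF, apart from the immunoproteasome genes PSMB8, PSMB9 and PSMB10. They are 40 of 16121 named genes, and a gene with several probes was represented by its brightest one. RNA from whole blood kept in RNAlater was measured in 1 free-ranging female coyote (Canis latrans, animal 20288) and in 13 red wolves (Canis rufus), an endangered canid of the eastern United States. Of the wolves, 6 were captive (2 females and 4 males) and 7 free-ranging (2 females and 5 males). The labels used here do not tie status, sex or age to each wolf, so wolves could not be grouped by either. A note of collection in the wild stands with the coyote and with wolves 11136, 111080 and 11310. With 4 arrays per animal there were 56 in all, spread over 7 slides. Since the 4 arrays repeat 1 RNA sample, the unit of comparison is the animal. Wolves are named by the sample numbers of the labels.

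The proteasome is the large protease that breaks down proteins tagged with ubiquitin. Its core particle is a barrel of alpha rings, which gate the entry, and beta rings, some of whose subunits cut. A regulatory particle caps the barrel: its ATPases unfold the substrate, and its other subunits bind ubiquitin or remove it. Alternative activators and an inhibitor can take the place of the cap. In blood, the proteasome works in white cells and in maturing red cells, which shed much of their protein content.

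A level below is a log2 intensity with the array's mean set to 0, and each unit of it doubles the intensity. The probes were made for human transcripts and bind canid ones unequally, so levels do not rank the subunits by abundance. Genes of liver and skeletal muscle served to set a background bound of 0.396, the top mean level among 40 of them. Averaged over the 14 animals, 11 of the 40 proteasome genes were above the bound, and 9.91% of all named genes were. Tests were limma fits over all 24354 probes with Benjamini-Hochberg adjustment, called at an adjusted p under 0.05. In whole blood, fewer cells of a type and less RNA per cell cannot be told apart.

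The blood markers were unevenly measured. Among red cell genes 7 of 16 lay above the bound, led by the globin gene HBD at a mean level of 6.15. Among white cell genes 1 of 19 neutrophil, 2 of 14 monocyte, 2 of 17 T cell, 2 of 10 cytotoxic and 0 of 12 B and plasma cell genes did, with 1 of 12 platelet genes. The defining markers S100A8, CD14, CD3E and MS4A1 were at or below the array mean, at -0.24, -0.16, -0.26 and -0.01. Arrays had 95th percentiles between 0.332 and 1.24, and this measure was lowest on average in wolf 11136, at 0.381 against 0.568 to 0.866 in the other wolves. Slide was a term of each fit.

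**Figure D1:**
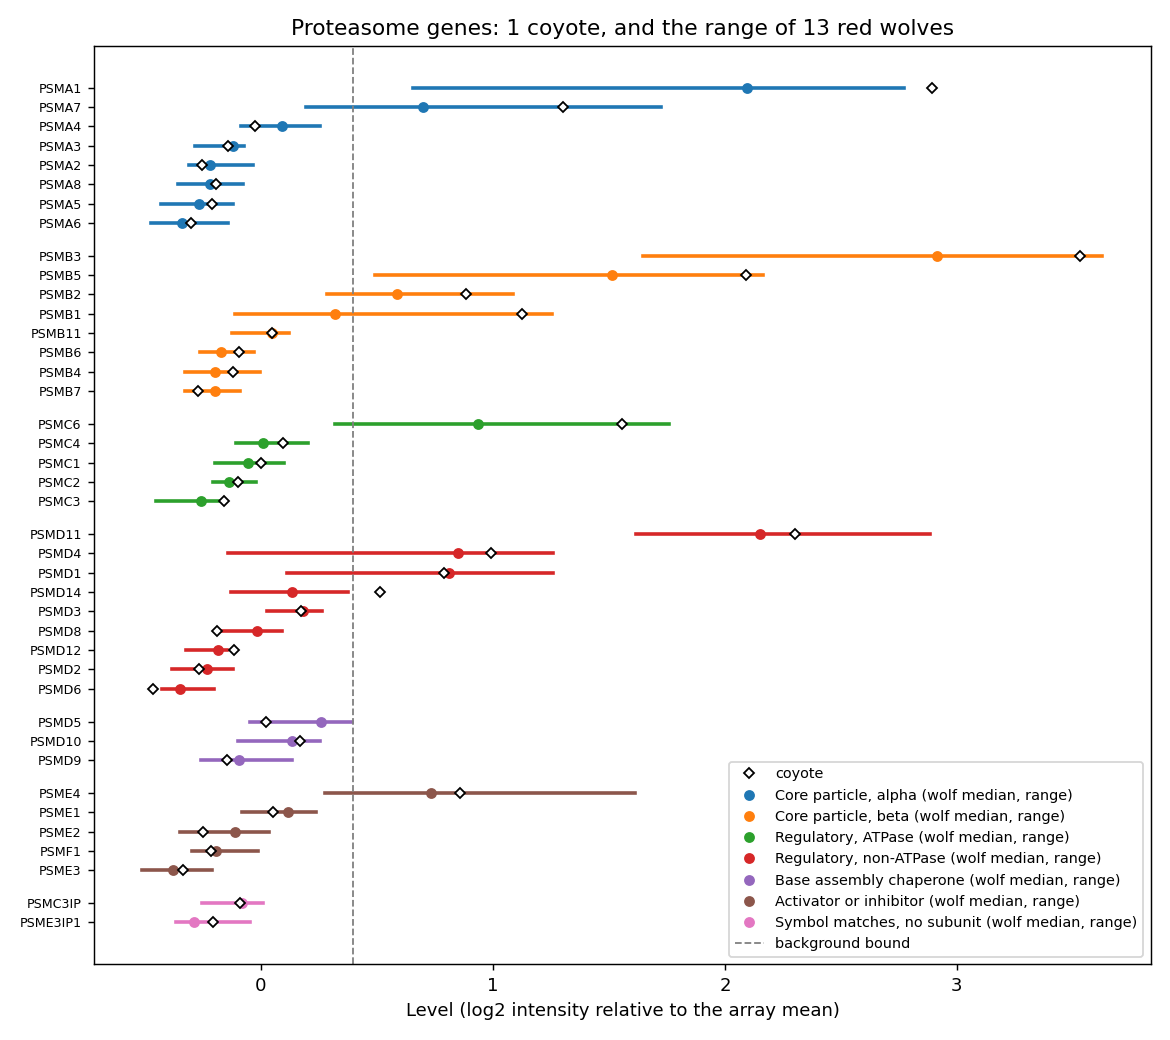
Levels of the 40 proteasome genes by role (horizontal axis, log2 intensity relative to the array mean). Open diamonds are the coyote, dots the median and bars the range of 13 wolves, and the dashed line is the background bound of 0.396. The widest bars are those of 2 alpha, 4 beta, 1 ATPase, 3 non-ATPase and 1 activator gene, whose medians lie above the line except that of PSMB1 at 0.32.

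The genes of the core particle that were measured above background differed widely from wolf to wolf. PSMA1, an alpha-ring subunit, had the largest SD of all the proteasome genes. Its level ran from 0.65 in wolf 11273 over a median of 2.10 to 2.77 in wolf 11206, a 4.34-fold span. Its SD over the wolves was 0.75, against 0.20 between arrays of an animal (limma F test, adjusted p = 6.97e-25). A set of 5 wolves stood close together at the top, namely 11206, 11105, 11270, 11310 and 111080, between 2.61 and 2.77. PSMA7, the other alpha-ring gene above the bound, ran from 0.20 in wolf 11136 over a median of 0.70 to 1.73 in wolf 11206. Its arrays were the least precise, with an SD of 0.38 between arrays and 0.47 between wolves (limma adjusted p = 3.23e-08).

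Of the beta-ring genes, PSMB3, a structural subunit, was the brightest proteasome gene. It ran from 1.65 in wolf 11273 over a median of 2.91 to 3.63 in wolf 11310, a 3.95-fold span (SD 0.66 over wolves and 0.22 between arrays, limma adjusted p = 1.04e-19). PSMB5, the subunit with chymotrypsin-like activity and the main target of the drug bortezomib, ran from 0.49 in wolf 11273 over a median of 1.51 to 2.17 in wolf 111080. Its wolves left a gap, with 6 wolves at 0.91 or lower and 7 wolves at 1.51 or higher. The span was 3.20-fold (SD 0.59 and 0.22, limma adjusted p = 2.20e-19). PSMB1, a structural beta subunit, ran from -0.11 in wolf 10406 over a median of 0.32 to 1.25 in wolf 11310, and only 5 wolves lay above the bound for it. PSMB2, also structural, had the narrowest span of the 11, 1.74-fold, from 0.28 in wolf 11273 over a median of 0.59 to 1.08 in wolf 11206. PSMB1 and PSMB2 passed with limma adjusted p values of 3.07e-11 and 5.40e-09.

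**Figure D2:**
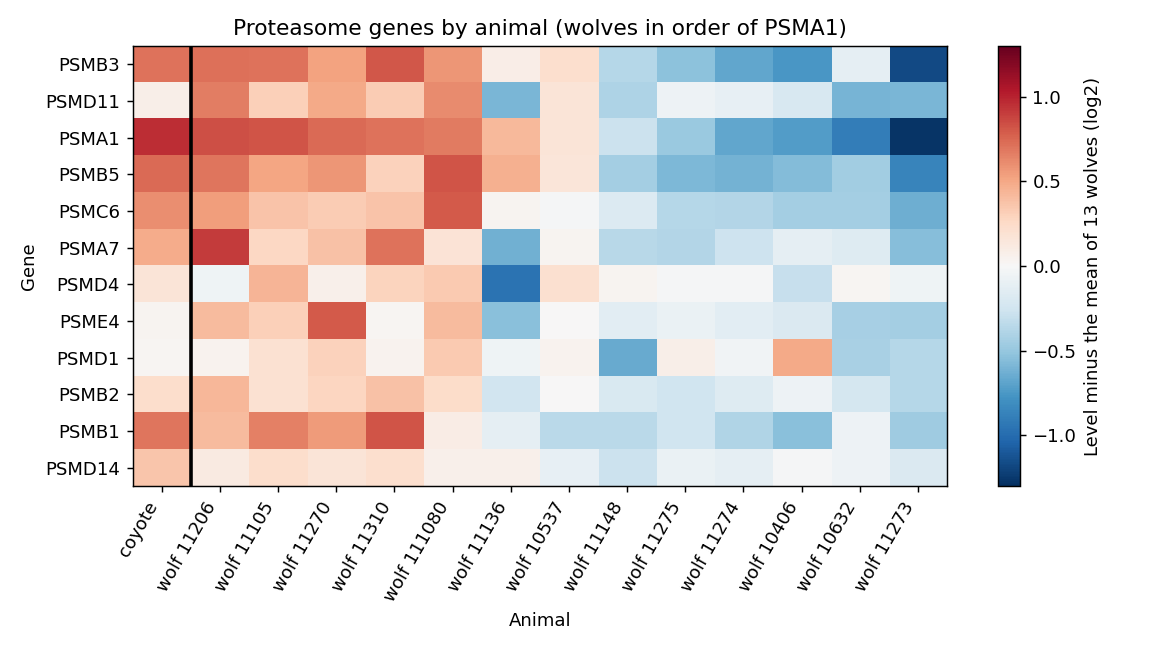
Level of 12 proteasome genes in each animal minus the mean of the 13 wolves (colour, log2). The coyote is the leftmost column, and the wolves follow in order of their PSMA1 level. Wolves 11105, 11270, 11310 and 111080 are above the mean for 11 of the 11 genes over the background bound, and wolves 11273 and 11274 for 0 of 11.

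Of the PSMC and PSMD genes of the regulatory particle 4 lay above the bound. PSMC6, an ATPase of the ring that unfolds substrates, ran from 0.32 in wolf 11273 over a median of 0.94 to 1.76 in wolf 111080 (SD 0.45 over wolves, 0.15 between arrays, limma adjusted p = 1.81e-18). PSMD11, a scaffold of the lid that braces the cap on the core, ran from 1.62 in wolf 10632 over a median of 2.15 to 2.88 in wolf 11206 (SD 0.46 and 0.19, adjusted p = 3.38e-15). PSMC6 thus had the same wolf at the low end as PSMA1, PSMB3, PSMB5 and PSMB2, while for PSMD11 wolves 11273 and 11136 at 1.63 stood beside wolf 10632.

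PSMD4 and PSMD1 had other wolves at their low ends. PSMD4, a ubiquitin receptor of the cap, ran from -0.14 in wolf 11136 over a median of 0.85 to 1.26 in wolf 11105 (SD 0.35 and 0.15, limma adjusted p = 7.13e-14). Wolf 11136 stood alone, since the next lowest wolf was at 0.52. In that wolf PSMA1 and PSMB5 stood at 2.36 and 1.81, above the means of the wolves of 1.93 and 1.35. PSMD1, a large scaffold of the base, ran from 0.11 in wolf 11148 over a median of 0.81 to 1.26 in wolf 10406 (SD 0.32 and 0.13, limma adjusted p = 3.79e-13). Wolf 10406, highest for PSMD1, had the lowest PSMB1 and a low PSMA1, at 1.21. Wolf 11273, lowest for PSMA1, was among the 3 lowest for PSMD4 and PSMD1 as well, at 0.76 and 0.39.

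PSMD14, the deubiquitinase that strips ubiquitin from the substrate, was the only gene below the bound to pass. It ran from -0.13 in wolf 11148 over a median of 0.13 to 0.37 in wolf 11105 (limma adjusted p = 0.000326), and none of the wolves exceeded the bound. Without the slide term it did not pass (adjusted p = 0.0720). Among activators PSME4, which caps the core without ubiquitin and is known in mice for histone breakdown in sperm formation, ran from 0.28 in wolf 11136 over a median of 0.73 to 1.61 in wolf 11270 (SD 0.39 and 0.14, limma adjusted p = 1.78e-16). Its other probe, at a mean level of 0.49, also passed (limma adjusted p = 3.28e-08).

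In all, 12 of the 40 proteasome genes differed among the wolves in limma's F test, against 11.2% of all probes and 12.8% of named genes by their brightest probe. Above the bound 11 of 11 passed, where 79.1% of the 1597 named genes and 78.1% of probes there did, and below it 1 of 29, where 5.02% of probes did. The median share of variance between wolves was 0.857 for the 11 genes and 0.555 over the named genes above the bound. Each wolf gave 1 RNA sample, so the F test and this share set differences between samples against array noise. Differences of the animal and of its sample cannot be told apart. By role, 2 of 8 alpha, 4 of 8 beta, 1 of 5 ATPase, 4 of 9 non-ATPase and 1 of 5 activator or inhibitor genes passed.

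The other 28 genes had mean levels between -0.37 and 0.22, and their wolves spanned 1.13- to 1.36-fold. Their SDs over wolves were 0.06 to 0.12 and those between arrays 0.12 to 0.22, and adjusted p values lay between 0.0547 and 0.951. Among them were the catalytic beta subunits PSMB6 and PSMB7, the interferon-inducible activator genes PSME1 and PSME2, the nuclear activator PSME3 and the inhibitor PSMF1. The germline alpha subunit PSMA8 and the thymic beta subunit PSMB11 were also at or below background. PSMD5, an assembly chaperone of the base, came nearest to the threshold (limma adjusted p = 0.0547). PSMC3IP, a factor of meiotic recombination, and PSME3IP1, which binds PSME3, carry matching symbols but are no subunits. A level below the bound is that of the human probe and does not show that the canid transcript is scarce. For PSMA1, only 1 of the 3 probes was bright; the others had mean levels of -0.28 and -0.31 and did not pass (limma adjusted p = 0.522 and 0.540).

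Most of the 11 genes above the bound moved together over the wolves. In all 55 pairs the Pearson r was above 0, and the median was 0.739, against 0.328 over all pairs of the 1597 named genes above the bound. Of the 55 pairs, 38 passed for r and 40 for rho in permutation tests over the 13 wolves adjusted over the 55 pairs (two-sided, 100000 permutations). Without the 10 pairs of PSMB5, whose wolves fell on either side of a gap, the median r of the 45 others was 0.741. The closest pair was PSMA7 and PSMB2, with r = 0.964 (permutation p = 1e-05, the smallest these permutations can give, adjusted 0.000157) and rho = 0.962 (permutation p = 1e-05, adjusted 0.000412). Leaving out the wolves with the most extreme PSMA7, 11206 and 11310, gave r = 0.948.

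PSMA1, PSMB3 and PSMC6 formed another close set, picked after their values were seen. PSMA1 with PSMB3 had r = 0.938 (permutation p = 1e-05, adjusted 0.000157; rho 0.896, permutation p = 0.00013, adjusted 0.0011) and 0.901 without wolves 11273 and 10406. PSMA1 with PSMC6 had r = 0.942 (permutation p = 2e-05, adjusted 0.000157; rho 0.940, permutation p = 3e-05, adjusted 0.000412) and 0.924 without wolves 11273 and 10632. Over all 13 wolves, across its gap, PSMB5 had r = 0.957 with PSMA1, 0.924 with PSMB3 and 0.953 with PSMC6 (permutation tests, adjusted p = 0.000157 each). The relation was also taken within the 6 wolves below and the 7 wolves above that gap. This split follows PSMB5's own values and narrows its range. With so few wolves, a failure to pass there does not show that a relation is absent. With PSMA1, r was 0.736 below the gap (exact permutation p = 0.107; rho 0.486, exact p = 0.356) and 0.666 above it (exact permutation p = 0.111; rho 0.536, exact p = 0.236). With PSMB3 it was 0.924 (exact permutation p = 0.0125, adjusted over the 6 relations 0.0750) and 0.333, and with PSMC6 0.800 and 0.832 (exact permutation p = 0.103 and 0.0252, adjusted 0.133 and 0.0756), so none passed the adjustment, and none did for rho (lowest adjusted p 0.205). Over the wolves of single slides, with 7 or 8 wolves each, the median r of the 55 pairs lay between 0.573 and 0.824.

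PSMD4 and PSMD1 had the fewest pairs that passed. Of the 10 pairs of each, 1 passed for r, the one with PSMD11, while all 36 pairs among the other 9 genes did. For rho 3 pairs of PSMD4 passed, those with PSMB3, PSMB1 and PSME4, and 1 of PSMD1, again with PSMD11. PSMA1 with PSMD4 had r = 0.222 (permutation p = 0.509, adjusted 0.529; rho 0.478, permutation p = 0.101, adjusted 0.116), and 0.268 without wolves 11273 and 10632. With PSMA1, the r of PSMD4 was higher without wolf 11136. Over the other 12 wolves, an alternative chosen after the values were seen, PSMA1 with PSMD4 had r = 0.653 (permutation p = 0.0213, adjusted 0.0293; rho 0.573, permutation p = 0.0539, adjusted 0.0723). On the 3 slides without wolf 11136 this r was 0.525, 0.715 and 0.708, and on the 4 slides with it 0.121, 0.0336, 0.410 and -0.000482. Without that wolf 5 pairs of PSMD4 passed for r and 4 for rho, and the median r of its 10 pairs was 0.557, against 0.387 over all 13 wolves. Its r with PSMD11, PSMA7, PSME4 and PSMB2 was lower without that wolf, at 0.491, 0.373, 0.409 and 0.469. Over all 13 wolves these were 0.572, 0.521, 0.554 and 0.481, and the r of its remaining pairs was higher without that wolf. PSMD1 kept a median r of 0.470 there, with 1 pair past the threshold for r and 0 for rho, and the median of all 55 pairs was 0.828. PSMD4 with PSMD1 had the lowest r, 0.101 (permutation p = 0.737, adjusted 0.737; rho 0.319, permutation p = 0.288, adjusted 0.299), and 0.00753 without wolves 11136 and 11105.

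**Figure D3:**
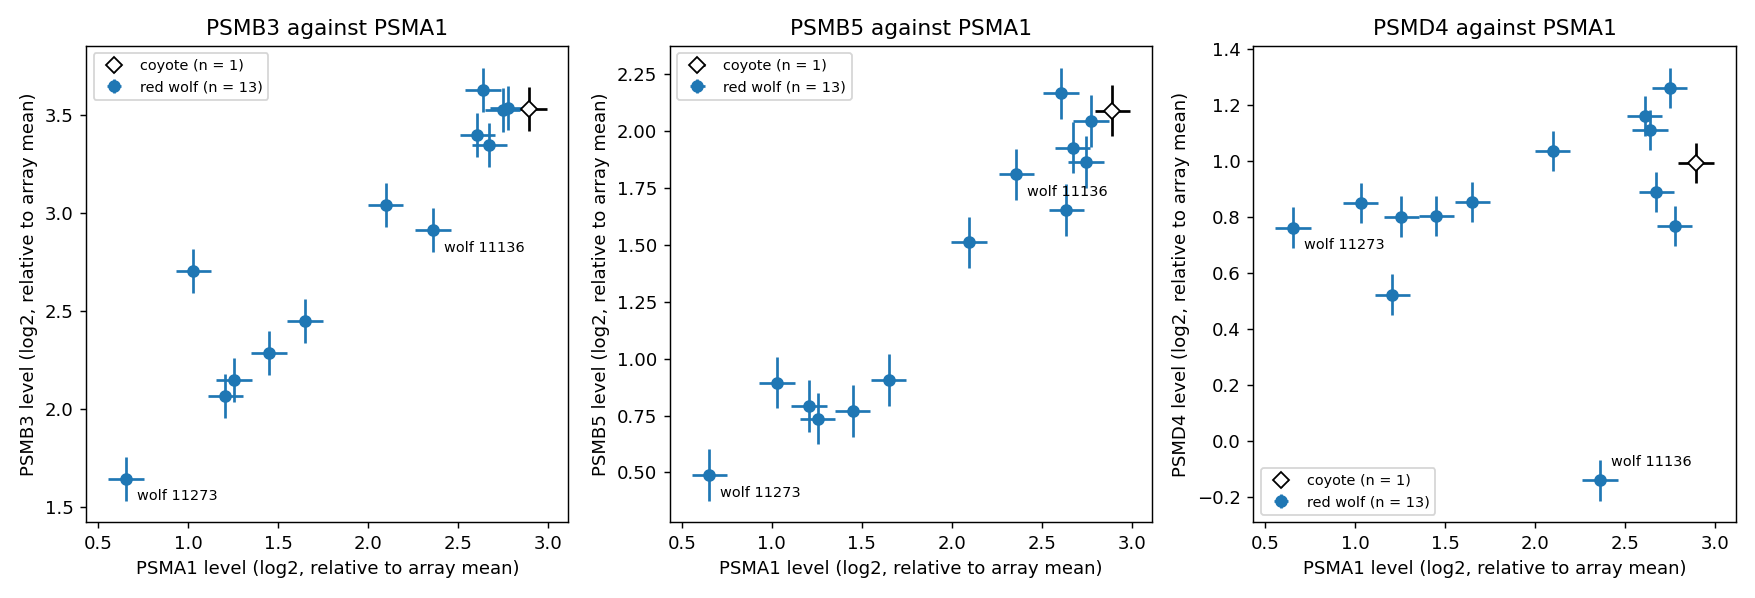
Levels of PSMB3, PSMB5 and PSMD4 (vertical axes) against PSMA1 (horizontal axes), log2 relative to the array mean. The open diamond is the coyote and each dot a wolf, with error bars of 1 standard error over the animal's arrays. PSMB3 and PSMB5 are high where PSMA1 is high, and PSMD4 in wolf 11136 lies at -0.14.

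With all arrays forced to 1 common distribution (quantile normalization), the median r of the 55 pairs was 0.501, and that over all named genes above the bound 0.0370. Among PSMA1, PSMB3, PSMB5 and PSMC6 r then had a median of 0.912 and a lowest value of 0.844, and for PSMD4 with the other 10 genes between -0.395 and 0.457. The signal range of a wolf's arrays, taken as the mean of their 95th percentiles, had r of 0.0783 with PSMA1 (permutation p = 0.809; rho 0.341, permutation p = 0.256) and 0.176 without wolves 11136 and 10406. None of 12 such relations passed for r (lowest adjusted p 0.143, PSMD4) or for rho (lowest adjusted p 0.388). For PSMD4 r was 0.726 (permutation p = 0.0119, rho 0.390 with permutation p = 0.189) and fell to -0.0218 without these wolves. PSME4 had r = 0.565 (permutation p = 0.0437, adjusted 0.262) and 0.379 without them, and PSMD11 had 0.496 and 0.297. Over the 1597 named genes above the bound the median r with signal range was 0.449.

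**Figure D4:**
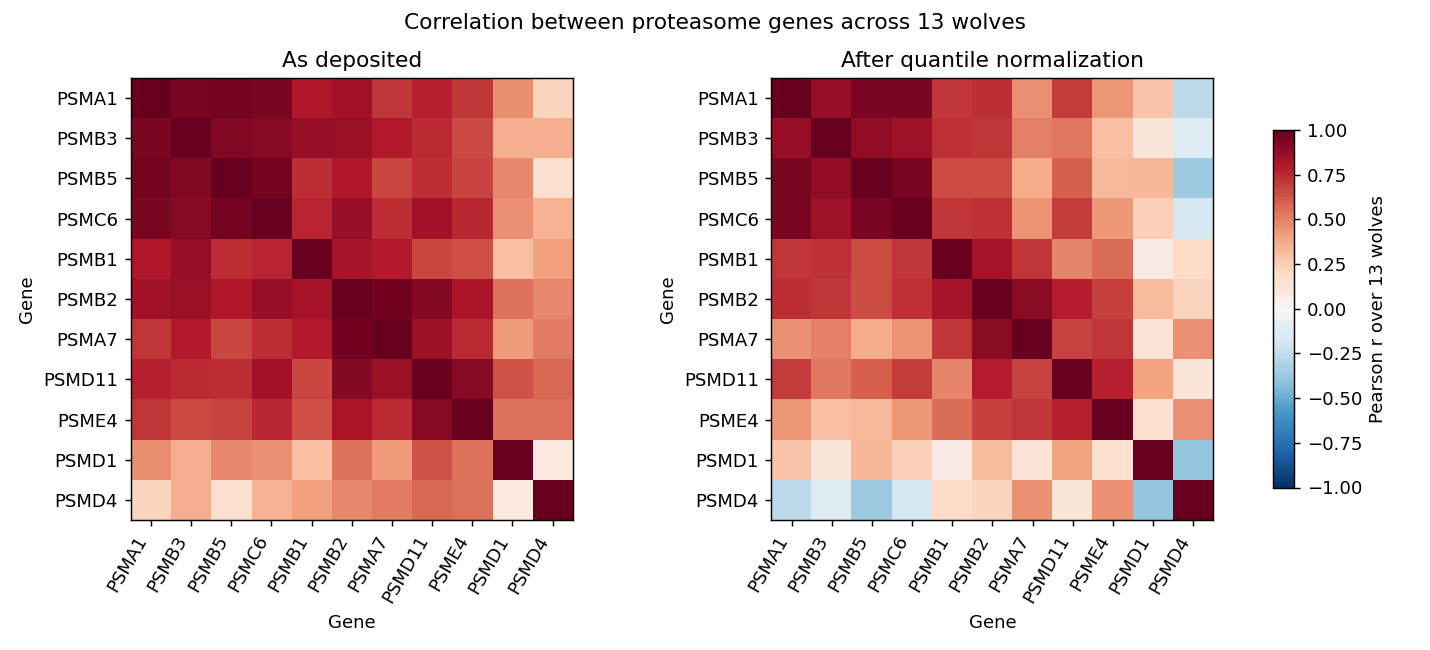
Pearson r over 13 wolves between the 11 proteasome genes above the background bound (colour), as deposited on the left and after quantile normalization on the right. The median of the 55 pairs is 0.739 on the left and 0.501 on the right, and the rows of PSMD1 and PSMD4 are the palest on both sides.

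Levels of the marker lists are given beside these differences, and their part in them was not tested. Over the 13 wolves the mean level of the monocyte list had r = 0.623 with PSMA1 (permutation p = 0.0250; rho 0.643, permutation p = 0.0204) and 0.447 without the 2 most extreme wolves. Its genes went both ways, and most had a negative r with PSMA1. FCER1G, LYZ and AIF1 had r of 0.777, 0.690 and 0.635, while FCN1, MS4A7 and CD14 had -0.605, -0.517 and -0.405. The B and plasma cell list had none of its 12 genes above the bound, with r of -0.721 for MS4A1 and 0.648 for CD79A. Its mean level had r = 0.577 (permutation p = 0.0381; rho 0.566, permutation p = 0.0476) and 0.478 without its 2 most extreme wolves. The cytotoxic list had r = -0.640 (permutation p = 0.0207, rho -0.560 with permutation p = 0.0505) and -0.495 without the 2 most extreme wolves. The platelet list had r = -0.565 (permutation p = 0.0471, rho -0.478 with permutation p = 0.103), which became -0.497. Genes of both lists went both ways, and most had a negative r with PSMA1. Of the cytotoxic genes, NKG7 and GNLY had 0.592 and 0.322, while PRF1 had -0.714. Of the platelet genes, TREML1 and ITGA2B had 0.590 and 0.574, while TUBB1 had -0.509. Only 2 of the 10 cytotoxic and 1 of the 12 platelet genes lay above the bound. For red cells r was -0.505 (permutation p = 0.0796; rho -0.434, permutation p = 0.138) and -0.770 without the 2 most extreme wolves. The neutrophil and T cell lists had r of -0.411 (permutation p = 0.162; rho -0.445, permutation p = 0.130) and -0.306 (permutation p = 0.311; rho -0.511, permutation p = 0.0776), which became -0.0760 and -0.489. After adjustment over the 7 lists 0 passed for r or for rho, the lowest adjusted p being 0.0825 for r, shared by 4 lists, and 0.118 for rho. The mean level of the 16 red cell genes was lowest in wolf 11310 (0.517) and highest in wolf 11105 (0.973), which both stood among the 5 highest for PSMA1. That of the 14 monocyte genes ran from -0.110 in wolf 11273, lowest for PSMA1, to 0.00108 in wolf 11310. The 10 cytotoxic genes and the 12 platelet genes were highest in wolf 11273, at 0.130 and 0.197. The 19 neutrophil genes lay between -0.0754 and -0.00287 and the 17 T cell genes between -0.0428 and 0.0629. Over all 2064 probes above the bound, wolf 11273 stood 0.0457 below the mean of the wolves, while its mean over the 11 proteasome genes was 0.619 below. Wolf 11136, lowest for PSMD4, PSME4 and PSMA7, stood 0.312 below the mean of the wolves over those probes, lower than any other wolf, and 0.192 below over the 11 genes.

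The 5 genes whose levels followed PSMA1 most closely among 1596 named genes above the bound were no proteasome genes, and these values are a description. They were SFT2D1 (r = 0.972), TMEM167A (0.969), MTMR3 (0.966), GGH (0.966) and CDC42 (0.966). GGH is gamma-glutamyl hydrolase, an enzyme of folate turnover, MTMR3 a phosphoinositide phosphatase and CDC42 a small GTPase that shapes the actin skeleton. These 5 genes were each lowest in wolf 11273. PSMB5 ranked 12th by this measure, PSMC6 37th and PSMB3 42nd, while PSMD1 ranked 573rd and PSMD4 687th.

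Genes that build the proteasome or feed it were read from the same fit. Among proteasome assembly factors 1 of 5 measured genes differed among the wolves, the core chaperone PSMG1, from 0.12 in wolf 11136 to 0.68 in wolf 11273 (limma adjusted p = 0.0188), with a mean level below the bound. Its call was lost in 6 of 26 other settings, each of which left out a wolf (10537, 11136 or 11273) or a slide (adjusted p 0.0585 to 0.115). Among proteins that dock on the proteasome or bring substrates to it 5 of 16 differed. SEM1, a small lid subunit, ran from 0.64 in wolf 11273 over a median of 1.25 to 1.86 in wolf 11270 (limma adjusted p = 2.74e-17). VCP, the ATPase that pulls ubiquitinated proteins out of complexes, ran from 0.13 in wolf 11273 over a median of 0.60 to 1.55 in wolf 111080 (adjusted p = 2.96e-16). BAG6, a chaperone for stray membrane proteins, was lowest in wolf 11136 at 0.29, as PSMD4 was, and highest in wolf 111080 at 1.45 (limma adjusted p = 6.73e-12). The proteasome deubiquitinase UCHL5 and the shuttle UBQLN2 also passed, at mean levels of 0.25 and 0.17. Neither passed without the slide term (limma adjusted p = 0.0549 and 0.104), and UCHL5 also failed without wolf 11275 or 11310 (adjusted p = 0.0565 and 0.0731) or without either of 2 slides. These shares of 1 of 5 and 5 of 16 stand beside 12.8% of all named genes. Of the 16, SEM1, VCP and BAG6 were the 3 above the bound, where 79.1% of named genes passed.

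Of 4 genes that control proteasome gene expression 1 passed, against 12.8% of all named genes. This was NFE2L2, the regulator of oxidative stress defence, from -0.31 in wolf 11273 to 0.40 in wolf 11206 (limma adjusted p = 0.00345), with a mean level below the bound. It did not pass without the slide term (adjusted p = 0.0627), without wolf 11206 (0.117) or without 1 of the slides (0.0903). NFE2L1 was the only 1 of the 4 above the bound, at a mean level of 0.98. It did not pass (limma adjusted p = 0.0599), and its r with PSMA1 was -0.208. Of 3 measured ubiquitin genes 2 passed, both above the bound, where 79.1% of named genes did. UBA1, which activates ubiquitin, ran from 0.03 in wolf 11273 to 1.18 in wolf 111080 (limma adjusted p = 4.88e-14), and UBB, which encodes ubiquitin, from 7.26 in wolf 11136 to 8.62 in wolf 11105 (adjusted p = 6.12e-11). UBB did not pass after quantile normalization (limma adjusted p = 0.740). Its mean level of 8.10 was the highest of all probes, and quantile normalization gives the brightest probe of every array the same value. Whether UBB was the brightest probe on every array was not tested, nor was the cause of its lost call. Of the 2 immunoproteasome genes measured 1 passed, and it lay above the bound. The inducible catalytic subunit PSMB10 of the immunoproteasome ran from 0.05 in wolf 11275 over a median of 0.39 to 1.11 in wolf 11310 (limma adjusted p = 8.69e-08). PSMB8, another inducible catalytic subunit, had a mean level of -0.09 and a 1.19-fold span (adjusted p = 0.756).

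The coyote was set against the 13 wolves on 1 value per animal, its own spread being assumed to equal theirs. None of the 40 proteasome genes passed limma's test, in which 0.00411% of all probes were called (1 of 24354). At an unadjusted p under 0.05 there were 2, PSMB1 and PSMD14, where 3.74% of all probes were called. Both were higher in the coyote, and 1.88% of all probes were both called at that unadjusted p and higher in the coyote. PSMB1 stood at 1.13 in the coyote, against -0.11 to 1.25 in the wolves (difference 0.69, SE 0.34, 95% interval 0.01 to 1.38, limma adjusted p = 0.998). PSMD14 stood at 0.51 in the coyote and at most at 0.37 in the wolves (difference 0.37, SE 0.14, adjusted p = 0.998). The coyote exceeded the bound for PSMD14 by its value over 4 arrays, and none of the wolves did. On slides 32010 and 32013 its array lay below the bound, at 0.38 and 0.24, and differed from the wolves by 0.41 and -0.02. On slides 32020 and 32021 it was at 0.85 and 0.71 and differed by 0.59 and 0.50.

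The coyote stood above the mean of the wolves for 11 of the 11 genes over the bound, and 36.7% of all probes over the bound were higher in the coyote. As these genes move together, the 11 are not independent. PSMA1 stood at 2.89 in the coyote, above the highest wolf at 2.77, and the mean of the wolves was 1.93 (difference 0.96, SE 0.63, 95% interval -0.33 to 2.24). On the 4 slides of the coyote this difference was 0.70, 1.16, 1.06 and 0.93. Over the mean of the 3 PSMA1 probes, of which 2 are dim, it was 0.37. PSMB5 and PSMB3 differed by 0.74 (SE 0.48) and 0.71 (SE 0.67), and PSMC6 by 0.60 (SE 0.36). For PSMD11, PSMD1 and PSME4 the differences were 0.08, 0.03 and 0.04, with 95% intervals of -0.98 to 1.13, -0.52 to 0.58 and -0.59 to 0.67, and for PSMD4 0.17 (-0.42 to 0.76). Outside the range of all wolves the coyote lay for 4 of the 40 genes, PSMA1, PSMD14 and PSMD12 above and PSMD6 below, against 12.2% of all probes outside it and 5.76% above it. Of the 11 genes over the background bound only PSMA1 did, against 6.78% of probes over the bound outside and 2.76% above the range. Summed levels of 2 marker lists also lay outside the wolves. The 14 monocyte genes summed to 1.75 in the coyote and to between -1.55 and 0.0151 in the wolves. The largest value in the coyote's sum was that of FCER1G, an adapter of Fc receptors. FCER1G stood at 2.03 in the coyote and at most at 0.82 in the wolves (difference 1.75, SE 0.24, limma adjusted p = 0.00132), the 1 probe called. Without it the other 13 genes summed to -0.276 in the coyote, still above the wolves, which lay between -1.94 and -0.495. The 10 cytotoxic genes summed to 0.00710 in the coyote and to 0.175 or more in the wolves. The 16 red cell genes summed to 10.4 in the coyote, inside the wolves' 8.28 to 15.6. The part of these lists in the coyote's levels was not tested.

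**Figure D5:**
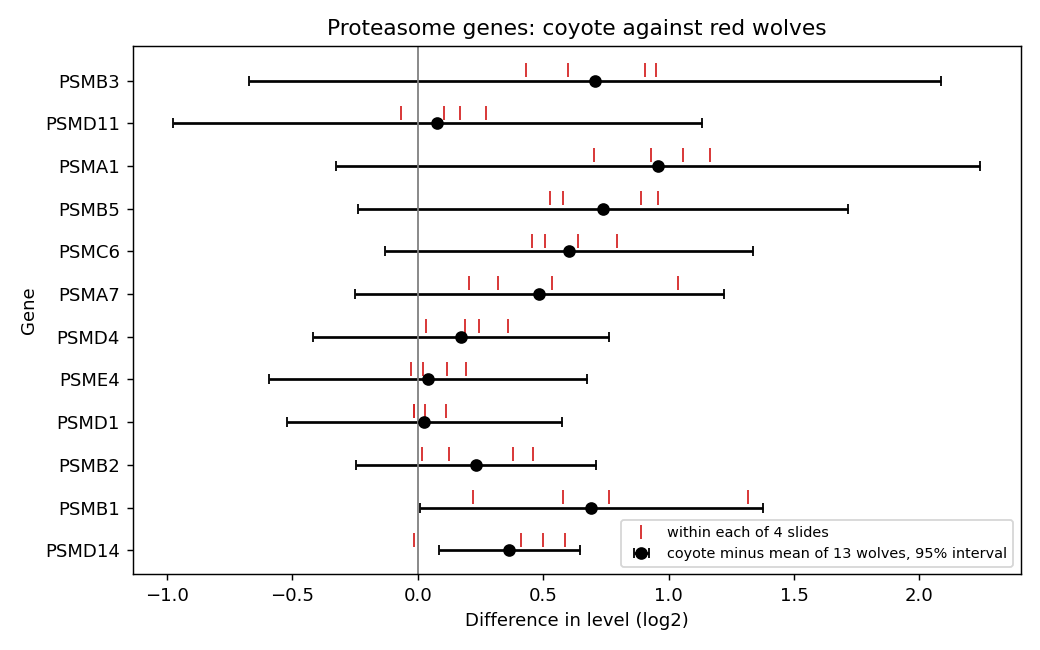
Difference in level between the coyote and the mean of 13 wolves for 12 proteasome genes (horizontal axis, log2). Dots and bars are limma estimates with 95% intervals, and red ticks the difference within each of the 4 slides that held the coyote. The intervals of PSMB1 and PSMD14 alone leave out 0, before adjustment.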

How the data were processed

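The deposited values are log2 intensities of Illumina bead arrays, which the authors centred per array, per the labels' design text. The submitters' processing notes name BeadStudio 1.5.0.34. In the table the mean of each array is 0. The sources used here do not give whether background was subtracted, and fold spans are those of the deposited log2 values. Probes were named by the platform annotation: 18339 of 24354 had 1 gene symbol, none had several, and 6015 had none. Probe and protein sequences were not used here.

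Fits were made in R 4.3.3 (limma 3.58.1, eBayes with trend). Wolves were compared by the moderated F test of animal terms with slide as a covariate, over 52 arrays. The 4 arrays per animal measure array noise, and the number of arrays limits the precision. The coyote was compared on the animal terms of a fit of animal and slide. The variance share between wolves was estimated from animal and residual mean squares. The fits were tested on simulated data.

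Values over the wolves were given for each proteasome gene above the background bound or past the F test. For the one with the largest SD, the 5 genes most alike in Pearson r were named. List genes past the test were named, up to 6 a list. The members and lists were chosen with earlier results of these data known.

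Alternatives were no slide term, no trend, quantile normalization, other centring and scaling, bright probes only, the mean of a gene's probes, another bound, and each wolf or slide left out. Slides and arrays carry no replicate numbers.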

Additional observations from a re-analysis of the deposited data

How the results depend on the processing

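The count of 12 proteasome genes past limma's F test among wolves was between 11 and 13 in each of the 8 other settings and with each of the 13 wolves or 7 slides left out, and no proteasome gene passed in the coyote comparison under any of them. At an unadjusted p under 0.05 the coyote count ran from 0 to 6. PSMD14 failed among wolves without the slide term (adjusted p = 0.0720), while 322 of 323 results for the 12 proteasome genes under alternatives stayed on their side of the threshold. Of the 10 pathway list genes past the F test, PSMG1, UCHL5, UBQLN2 and NFE2L2 each lost the call under at least 1 alternative. SEM1, BAG6, VCP, PSMB10 and UBA1 lost it under none. UBB lost it only after quantile normalization. The median share of variance was 0.793 without the slide term. The median r among the 11 genes above the bound was 0.501 after quantile normalization and 0.828 without wolf 11136. The coyote difference of PSMD11 was -0.0902 after quantile normalization, and that of PSMA1 0.367 with the mean of its probes. That of PSMD1 ran from -0.0304 to 0.0735 over fits that left out a wolf or slide, and that of PSME4 from -0.0113 to 0.109. The causes were not tested. With 1 coyote and 13 wolves, and with 29 of 40 genes below the background bound, small differences could not be seen.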
